A study of Mus musculus with 4 samples.

Results

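The 6 genes described here, Cnr1, Dagla, Daglb, Mgll, Faah and Napepld, encode the main cannabinoid receptor of the brain and enzymes that make or break down its lipid ligands. They were taken by symbol from the deposited count matrix, and all 6 were found among its 19465 genes. Their levels were followed across brain areas, across the striatum from its medial to its lateral side, and across the 4 sets of spot barcodes.

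Endocannabinoids are lipid messengers that neurons release on demand and that act backwards across the synapse. The CB1 receptor, the product of Cnr1, sits mostly on axon terminals, where it lowers the release of glutamate or GABA. Its ligand arachidonoylglycerol is made by diacylglycerol lipase alpha (Dagla) and beta (Daglb) and is broken down mainly by monoacylglycerol lipase (Mgll). Its ligand anandamide can be made by a phospholipase D (Napepld) and is broken down by fatty acid amide hydrolase (Faah). In the striatum, CB1 is carried by the GABAergic projection neurons and by incoming cortical axons and is known for its part in synaptic depression and habit learning, and its message is known to be stronger laterally than medially.

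Spatial transcriptomes were measured with the Visium CytAssist assay on formalin-fixed, paraffin-embedded coronal brain sections that held the striatum. The sections came from 4 untreated mice, 2 wild type and 2 Celsr3 heterozygous, and Celsr3 encodes an adhesion receptor of the cadherin family. The kind of Celsr3 allele, the strain, the age and the sex of the mice are not given in the sources used here. Spot barcodes carry 1 of 4 endings, called sets 1 to 4 below, and no label ties an ending to a mouse or a genotype. For that reason no genotype was compared, no test was run, and each value is given for each set with a 95% interval that covers counting error only.

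Each set held 2808 to 3445 spots, and its total came to between 90752475 and 174761560 counts. The median spot held 26444 counts in set 4, the shallowest, and 52481 in set 1, the deepest. Celsr3 itself was at 26.0 to 47.2 counts per 1000000 (CPM) over the sets, and its level was not used to assign a genotype. Of 4744 different barcodes, which mark positions on the capture slide, 1613 occurred in all 4 sets and 3376 in more than 1. Gene totals differed between every pair of sets by far more than sampling noise, with a chi-square of 87.4 to 493.3 per degree of freedom.

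No spot positions were used here, so areas were defined by marker genes. The 12601 spots with at least 500 counts were clustered without the 6 genes and the other pathway genes described below, and 24 of 29 clusters could be named after a marker list. A spot can hold several cells of different types, so an area below means spots that carry the markers of that area. Striatal markers defined 6 clusters with 3034 spots, that is 725, 857, 910 and 542 spots in sets 1 to 4. An area was read in a set with at least 30 of its spots, so layer 5 (2 spots) and layer 6 (22 spots) were not read in set 4, the thalamus in sets 2 (0) and 3 (3) and the lateral septum in sets 1 (25) and 4 (0). A further 1689 spots, 871 of them in set 4, stayed unnamed. They include cluster 20, which held 335 spots of set 4 alone. Among its leading genes were Myl4, Tmem178, Dkk3 and Fezf2, which also led the layer 5 or 6 clusters. Arc, Hs3st2, Nr4a1, Adcy1, Ier5 and Trib1 made up the rest, and Arc came first. A level is the CPM of a gene, its counts summed over an area for each 1000000 of all counts there. The assay counts probes, which differ between genes, so levels were compared within a gene only.

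The receptor gene Cnr1 was highest in the striatum. There it was at 673 (665 to 682), 663 (653 to 672), 709.6 (701 to 718) and 406 (395 to 417) CPM in sets 1 to 4, with the 95% Poisson interval in parentheses. All other spots together held 184, 171, 219 and 139 CPM. Striatal spots therefore exceeded the rest in each set, by 3.66 (3.60 to 3.73), 3.88 (3.79 to 3.96), 3.24 (3.19 to 3.30) and 2.92 (2.83 to 3.02) times. A mean of 10 CPM or more was reached by 10096 genes. Of these, 3.28% were at least 2-fold higher in the striatum in all 4 sets, and Cnr1 was the 1 of the 6 members that passed this limit, at rank 169. At least 2-fold lower were 5.76% of genes, with Faah and Napepld among them. Scaling by TMM or RLE, which raised striatal over other levels of all genes by 0.06 to 0.17 on the log2 scale, turned the direction of none of the 6 in any set. In spots that hold several cells, fewer cells of a type and less RNA per cell cannot be told apart.

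The order of Cnr1 over areas was then followed. After the striatum, whose lowest set lay above the highest set of the next area, came spots with meningeal markers at 262 to 400.1 CPM. Next were the claustrum and layer 6b at 186 to 396 CPM and cortical layer 2/3 at 192 to 321 CPM. The lower end was held by layer 4 at 65.7 to 127 CPM, the thalamus at 82.0 to 104 CPM, the white matter at 57.9 to 178 CPM and the choroid plexus at 38.0 to 121 CPM. Below the striatum, each area overlapped its neighbour in this order, so neighbouring ranks were not set apart by the spread over the sets. The median of the highest area was 10.8 times that of the lowest.

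**Figure D1:**
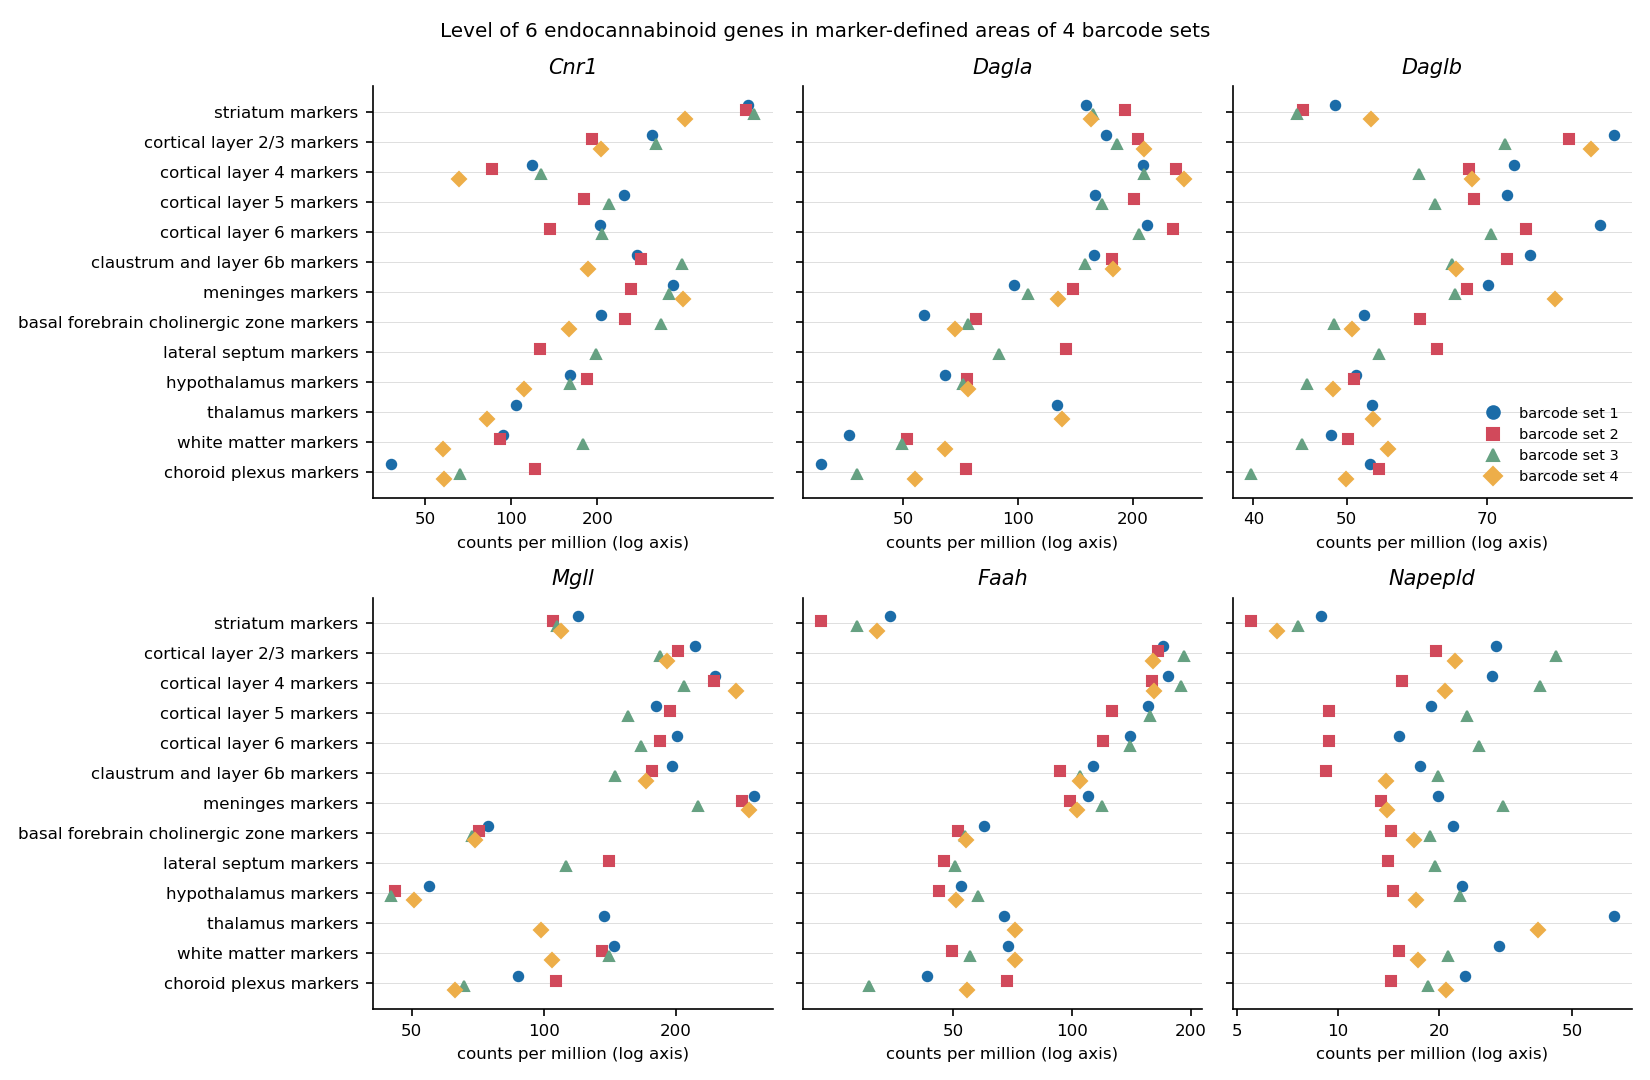
Level of the 6 genes, in CPM on a log axis whose range differs between panels, in spots that carry the markers of 13 areas. Each symbol is 1 barcode set, and areas with fewer than 30 spots in a set are left out. Cnr1 lies highest in the striatum (406.3 to 709.6 CPM), where Faah (23.1 to 34.6 CPM) and Napepld (5.48 to 8.91 CPM) lie lowest.

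Inside the striatum Cnr1 was graded. Striatal spots of each set were ordered by a score of other genes, the mean of Gpr155 and Rgs4, which mark the lateral striatum, minus the mean of Crym, Wfs1, Dlk1, Nnat, Lypd1, Stard5 and Calb1, which mark its medial and ventral parts. They were then split into a lateral, a middle and a medial group of equal size, where medial includes the ventral striatum. In the lateral group Cnr1 was at 1257, 1281, 1219 and 646 CPM in sets 1 to 4. The middle group held 531, 545, 668 and 402 CPM and the medial group 205, 128, 228 and 159 CPM. The 3 groups kept this order in every set. Between sets the lateral and middle groups overlapped, since the lateral value of set 4 was below the middle value of set 3, whereas the medial values lay below all others.

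The ratio of the lateral to the medial group was 6.13 (5.88 to 6.40), 9.97 (9.41 to 10.6), 5.35 (5.14 to 5.57) and 4.06 (3.73 to 4.42) in sets 1 to 4, with exact conditional binomial intervals. By the median of these ratios, 5.73, Cnr1 ranked 4 of the 9813 genes that met the minimum of 10 CPM. At least 2-fold higher laterally in all 4 sets were 24 of 9813 genes, or 0.245%, and at least 2-fold lower were 95 of 9813, or 0.968%. Of the 5 members that met the minimum, Cnr1 passed the higher limit and none passed the lower. Robo3, Gpr139 and Cpne9 ranked above Cnr1 and Nefm and Cyp2s1 just below, all named after their values were seen. Their ratios over the sets were 5.37 to 23.6, 3.94 to 12.5, 3.31 to 7.33, 2.96 to 4.26 and 3.23 to 3.88.

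A finer split into 10 equal steps along the same score showed a climb through the steps. No spot positions were used, so a slope and a border in the tissue cannot be told apart. In set 1 Cnr1 was at 129, 174, 278, 347, 516, 575, 693, 936, 1272 and 1724 CPM from the medial to the lateral end. In set 4 it went through 90.3, 129, 219.6, 299, 361, 426, 518, 557, 670.3 and 754 CPM. Each of the 9 changes from step to step was upward in sets 1, 2 and 4, and 8 of 9 in set 3. The last step exceeded the first 13.4, 24.2, 12.2 and 8.35 times in sets 1 to 4.

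**Figure D2:**
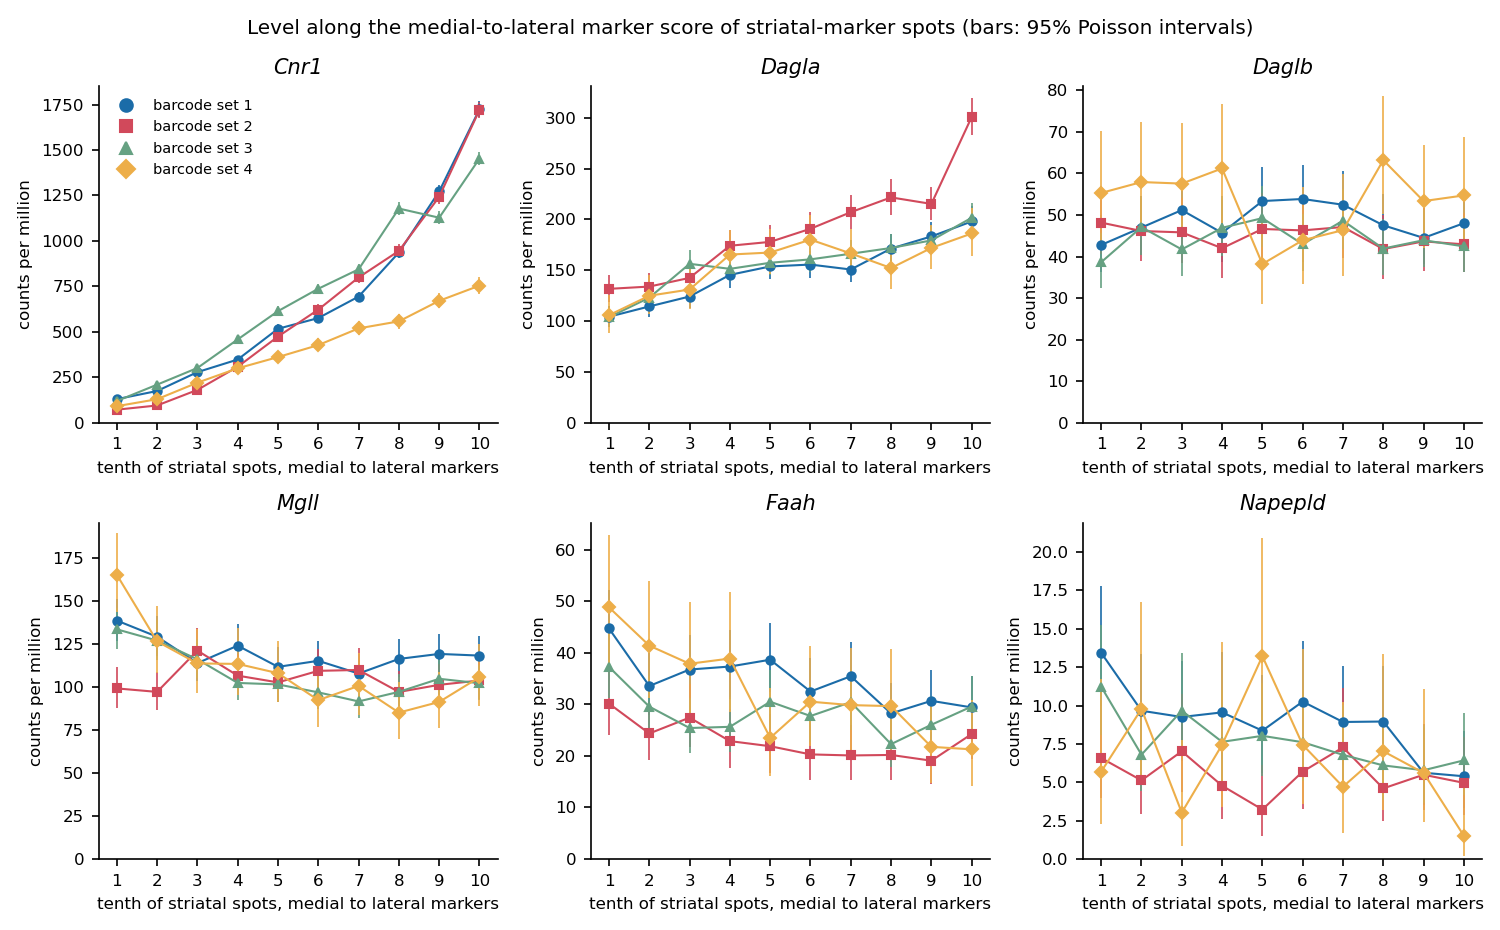
Level in CPM, on linear axes from 0, in 10 equal steps of the striatal-marker spots of each barcode set ordered from medial to lateral markers, with 95% Poisson intervals. Cnr1 climbs to 1724, 1721, 1453 and 753.8 CPM in the last step of sets 1 to 4, Dagla climbs less, Daglb stays level, and Mgll, Faah and Napepld lie level or slope downward.

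The single spots of the striatum showed how wide this range was. The 10th percentile of Cnr1 over spots was 108, 56.8, 122 and 69.7 CPM in sets 1 to 4 and the 90th percentile 1489, 1488, 1421 and 805 CPM. The variance between spots was 27.8, 17.6, 18.7 and 5.21 times that of Poisson counting. For the other 5 members this ratio was 0.962 to 1.63, with Dagla at the upper end. The ratio also rises with the counts per spot, which differ between genes and sets, so it does not rank them.

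Markers of other cells moved along with this gradient of Cnr1. The 14 striatal markers, all detected, summed to 11879 to 13346 CPM in the medial group and 18472 to 22355 CPM in the lateral one. The 10 hypothalamic markers summed to 263 to 349 and 61.0 to 81.1 CPM, with 1 of them at 0 in the lateral group of set 1. Medial spots thus carried fewer striatal and more hypothalamic counts than lateral ones. Dlk1, a medial gene of the score, was also among the leading genes of hypothalamic clusters 7 and 24. The hypothalamic difference is therefore not independent of the score. Choroid plexus markers (7 genes) stood at 5575, 181, 4733 and 208 CPM in the medial group of sets 1 to 4, high in sets 1 and 3, and at 70.9 to 111 CPM in the lateral one, where 1 gene was at 0 in sets 1 and 4. White matter markers (10 genes, all detected) summed to 9315 to 13840.4 and 7352 to 10513 CPM, and median counts per spot were 22431 to 45052 and 24207 to 50607. The 9 ventricle-lining markers went from 160.3, 268, 163 and 362 CPM in the medial group of sets 1 to 4 to 50.2 to 75.8 CPM in the lateral one, with 1 gene at 0 there in set 2. The 9 meningeal markers were at 237 to 274 and 143 to 181 CPM. The 7 interneuron markers (Cck, Gad1, Pvalb, Sst, Vip, Npy and Lhx6) were at 1016, 1494, 692 and 2005 CPM medially in sets 1 to 4. Laterally they were at 894, 1103, 638 and 1167 CPM. These 3 lists were all higher medially in every set. The interneuron list was not split by gene, so its sum need not stand for interneurons alone. Microglial and endothelial lists differed less, at 449 to 524 against 467 to 544 CPM and 212 to 299 against 229.9 to 309 CPM. The claustrum and layer 6b list was higher medially in every set, at 159, 197, 134 and 161 against 73.9, 82.8, 77.7 and 146 CPM. So was the layer 4 list, at 131, 99.1, 132 and 93.3 against 79.9, 48.1, 75.5 and 72.4 CPM. The layer 6 list was higher laterally in every set, at 300 to 371 against 344 to 399 CPM. Medial here names the low end of the score, since no spot positions were used. The part of the cells behind these lists in the ratio was not tested. Without the 2 clusters that had medial genes among their leading genes and the 1 rich in myelin genes, the lateral over medial ratio of Cnr1 had a median of 1.62 on the log2 scale, 1.23 to 1.96 over the sets, against 2.52 with all striatal clusters.

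The striatal clusters were built without Cnr1, but the genes of the score were not left out. Cnr1 levels by cluster are therefore no independent check of the gradient. Cluster 11, led by Pdyn, Wfs1 and Strip2, held 416 spots of which 410 were in the medial group, and its Cnr1 level was 141, 82.1, 164 and 140.3 CPM in sets 1 to 4. Each of the 6 striatal clusters had at least 12 striatal markers 2-fold up. Clusters 0, 6 and 21 made up most of the lateral group. Their Cnr1 level was several times that of cluster 11 in the same set. Cluster 0 had 879 CPM of Cnr1 in set 1, 902 in set 3 and 453 in set 4. Cluster 6, almost all from set 2, had 900.2 CPM, and cluster 21, which set 4 alone held, had 532 CPM. The myelin-rich cluster 12 lay between, at 241 to 372 CPM. Cluster 27, which holds Crym and histone genes among its leading genes and lay in the medial group with 156 of 160 spots, was at 97.8 to 162 CPM in the 3 sets with enough spots.

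Cnr1 also differed between layers of the cortex. In layer 2/3 it was at 311, 192, 321 and 206 CPM in sets 1 to 4, and in layer 4, where thalamic input ends, at 118, 85.6, 127 and 65.7 CPM. The ratio of layer 4 to layer 2/3 was 0.380 (0.356 to 0.407), 0.445 (0.408 to 0.485), 0.395 (0.373 to 0.419) and 0.318 (0.280 to 0.360). Every set had the lower level in layer 4, and 0.766% of 9786 genes were at least 2-fold lower there in all 4 sets, against 0.582% at least 2-fold higher. Cnr1 was the only member to pass this limit in either direction. Layer 5 held 249, 180.1 and 219 CPM in sets 1 to 3 and layer 6 held 205, 137 and 208 CPM, so the low level was at layer 4 with higher levels on both sides of it. Against the striatum, cortical layers 2 to 6 together were lower in Cnr1, at 0.325, 0.227, 0.294 and 0.383 times, where 4.16% of 9916 genes were at least 2-fold lower and 5.3% at least 2-fold higher in all 4 sets. Of the 6 members, Cnr1 passed the lower limit and Faah and Napepld the higher one. The sets differ in the layers behind this ratio, as layers 2/3 and 4 made up 374 of 398 cortical spots in set 4 and 274 of 683, 360 of 870 and 355 of 885 in sets 1 to 3. With these layers alone, Cnr1 was at 0.317, 0.213, 0.284 and 0.390 times the striatum. The comparisons of layers, of the cortex with the striatum and of the thalamus were chosen after levels had been seen.

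Dagla, the main synthetic enzyme for arachidonoylglycerol in the adult brain, had a weaker slope in the same direction as Cnr1 within the striatum. It was at 180.4, 245, 184 and 171 CPM in the lateral group of sets 1 to 4 and at 116, 139.9, 131 and 123 CPM in the medial group. Lateral exceeded medial 1.55 (1.45 to 1.66), 1.75 (1.64 to 1.87), 1.41 (1.33 to 1.51) and 1.4 (1.25 to 1.56) times, beyond counting error in all 4 sets but under 2-fold in each. By its median ratio Dagla ranked 195 of 9813 genes. Over the 10 steps of the score the last exceeded the first 1.90, 2.29, 1.94 and 1.76 times.

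Over areas, Dagla followed another order than Cnr1. Layer 4 was its highest area at 212, 258, 214 and 272 CPM in sets 1 to 4, and layer 6 came next at 217, 254 and 208 CPM in sets 1 to 3. The striatum, at 150.3, 191, 157 and 156 CPM, ranked 6 of 13 areas and did not overlap the thalamus below it, while 10 of 12 neighbours in this order overlapped. Hypothalamus and basal forebrain were at 64.3 to 73.9 and 56.8 to 77.7 CPM, and white matter and choroid plexus at 36.1 to 64.4 and 30.4 to 73.2 CPM. Layer 4 exceeded layer 2/3 1.24 (1.17 to 1.33), 1.25 (1.18 to 1.33), 1.18 (1.11 to 1.25) and 1.27 (1.18 to 1.37) times, the opposite direction to Cnr1 in each set. The ratio of striatum to all other spots was 1.22, 1.11, 1.13 and 1.08.

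Daglb, the second lipase, which is known from microglia and macrophages as well as neurons, was the most even member. Its highest area by the median exceeded its lowest 1.87 times, against 5.15 to 10.8 times for the other 5. Layer 2/3 was highest at 94.7, 85.1, 72.9 and 89.8 CPM in sets 1 to 4, and the striatum lowest at 48.6, 45.0, 44.3 and 53.0 CPM. In the lateral group it was at 46.7, 42.9, 42.3 and 56.1 CPM and in the medial group at 46.8, 46.3, 42.7 and 57.5 CPM. The ratio of these was 0.997 (0.887 to 1.12), 0.928 (0.813 to 1.06), 0.991 (0.877 to 1.12) and 0.975 (0.814 to 1.17), within counting error in every set. Over the 4 sets the lower bounds were 0.813 or above and the upper bounds 1.17 or below. Scaling by TMM or RLE, which raised lateral over medial levels of all genes by 0.13 to 0.22 on the log2 scale, moved these ratios to 1.07 to 1.13. Layer 4 was at 0.788, 0.786, 0.815 and 0.752 times layer 2/3, so the 2 lipases for the same ligand had opposite directions between these layers in each set.

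Mgll, which ends arachidonoylglycerol signals and is found in axon terminals and astrocytes, was highest in spots with meningeal markers. These held 302, 282, 225 and 294 CPM in sets 1 to 4, layer 4 held 245, 244, 208 and 274 CPM and layer 2/3 221, 202, 184 and 191 CPM. The hypothalamus, at 54.9, 45.8, 44.9 and 50.7 CPM, did not overlap the basal forebrain above it and was lowest. White matter, where Cnr1 and Dagla were low, kept 144, 136, 141 and 104 CPM of Mgll, overlapping the range of the striatum. Cortical layers 2 to 6 together exceeded the striatum 1.75 (1.69 to 1.82), 1.94 (1.86 to 2.02), 1.65 (1.59 to 1.71) and 2.01 (1.88 to 2.14) times. With layers 2/3 and 4 alone, which all 4 sets hold, the ratio was 1.95, 2.12, 1.86 and 2.00, on both sides of 2-fold. Layer 4 exceeded layer 2/3 1.11, 1.2, 1.13 and 1.44 times, as for Dagla and unlike Daglb and Cnr1.

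Across the striatum Mgll was level or somewhat lower laterally. The lateral group was at 116, 103, 99.9 and 94.4 CPM and the medial group at 126, 107, 123 and 130.3 CPM. The ratio was 0.918 (0.854 to 0.987), 0.966 (0.886 to 1.05), 0.810 (0.751 to 0.873) and 0.724 (0.637 to 0.824), lower laterally beyond counting error in sets 1, 3 and 4, but the values of sets 1 and 2 changed direction under TMM and RLE scaling, where the 4 ratios ran from 0.822 to 1.13. Without the medial and myelin-rich clusters set 1 changed direction too, to a difference of 0.00 on the log2 scale. Cluster 11, at the medial end, had 152, 96.5, 143 and 191 CPM in sets 1 to 4. Cluster 0 was lower in sets 1, 3 and 4, at 116, 101 and 118 CPM, while cluster 6 of set 2 was higher, at 105 CPM.

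Faah, the enzyme that breaks down anandamide, had the largest ratio of cortex to striatum among the 6 members. Cortical layers 2 to 6 held 157, 141, 165 and 160.0 CPM in sets 1 to 4 and the striatum 34.6, 23.1, 28.4 and 32.1 CPM. The ratio was 4.54 (4.28 to 4.83), 6.09 (5.63 to 6.60), 5.82 (5.46 to 6.21) and 4.99 (4.49 to 5.55), rank 163 of 9916 genes by its median, and 4.99, 7.04, 6.71 and 5.01 with layers 2/3 and 4 alone. Against all other spots the striatum stood at 0.340, 0.216, 0.244 and 0.325, and it was the lowest of the 13 areas. Layer 4 differed from layer 2/3 by less than counting error in every set, with ratios of 1.03 (0.965 to 1.10), 0.963 (0.896 to 1.04), 0.984 (0.927 to 1.04) and 1.00 (0.917 to 1.10). Layer 6 was at 141, 120.3 and 141 CPM in sets 1 to 3, below layers 2/3 and 4 in each, and 9 of 12 neighbours in the order of areas overlapped.

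The low striatal level of Faah was not even from side to side. It was at 30.3, 21.5, 26.0 and 24.4 CPM in the lateral group of sets 1 to 4 and at 38.6, 26.8, 29.5 and 41.7 CPM in the medial group. Lateral over medial was 0.783 (0.682 to 0.899), 0.802 (0.668 to 0.962), 0.881 (0.757 to 1.03) and 0.586 (0.457 to 0.748), lower beyond counting error in sets 1, 2 and 4, with set 2 changing direction in 2 alternative definitions of the striatal spots and set 3 level under TMM and RLE scaling. A cluster with no area name, number 15, led by Tafa2, Igfn1 and Ccn3, held 138, 140.2, 156 and 175 CPM of Faah, within the range of the cortical layers. The same cluster held 99.6, 98.9, 75.3 and 97.6 CPM of Mgll, under the lowest cortical layer value of 155.8 CPM, so its Faah was at a cortical level and its Mgll below one.

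Napepld, which can make anandamide and related lipids, was the lowest counted member and the one that was highest in the thalamus. There it was at 66.6 (62.2 to 71.2) and 39.5 (35.8 to 43.5) CPM in sets 1 and 4. Layer 2/3 came next at 29.6, 19.5, 44.7 and 22.3 CPM in sets 1 to 4, where the value of set 3 lay above the thalamus of set 4. The thalamus exceeded all other spots of its set 3.35 (3.11 to 3.62) and 2.60 (2.32 to 2.91) times, where 3.11% of 10173 genes were at least 2-fold higher in both sets and 4.57% at least 2-fold lower. Cnr1 was lower in the thalamus, at 0.348 and 0.431 times the other spots. The remaining 4 members were at 0.752 to 0.976 times, none past 2-fold, with Dagla and Mgll of set 1 above 1 under RLE scaling.

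In the striatum Napepld was at 8.91, 5.48, 7.58 and 6.57 CPM in sets 1 to 4, on 86 to 323 counts. All other spots held 27.1, 13.7, 26.7 and 20.01 CPM, a ratio of 0.329 (0.293 to 0.369), 0.401 (0.338 to 0.473), 0.284 (0.251 to 0.321) and 0.328 (0.261 to 0.408), and no area had a lower median. The cortex exceeded the striatum 2.44, 2.38, 4.23 and 3.24 times, and its layers 2/3 and 4 alone 3.28, 3.21, 5.53 and 3.33 times. The lateral group was at 6.87, 5.29, 6.45 and 4.71 CPM and the medial group at 10.6, 6.44, 9.13 and 6.36 CPM. Napepld was therefore under the mean of 10 CPM needed for the comparison across genes. Lateral over medial was 0.647 (0.487 to 0.857), 0.822 (0.563 to 1.2), 0.707 (0.526 to 0.948) and 0.740 (0.398 to 1.36), below 1 beyond counting error in sets 1 and 3 alone.

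**Figure D3:**
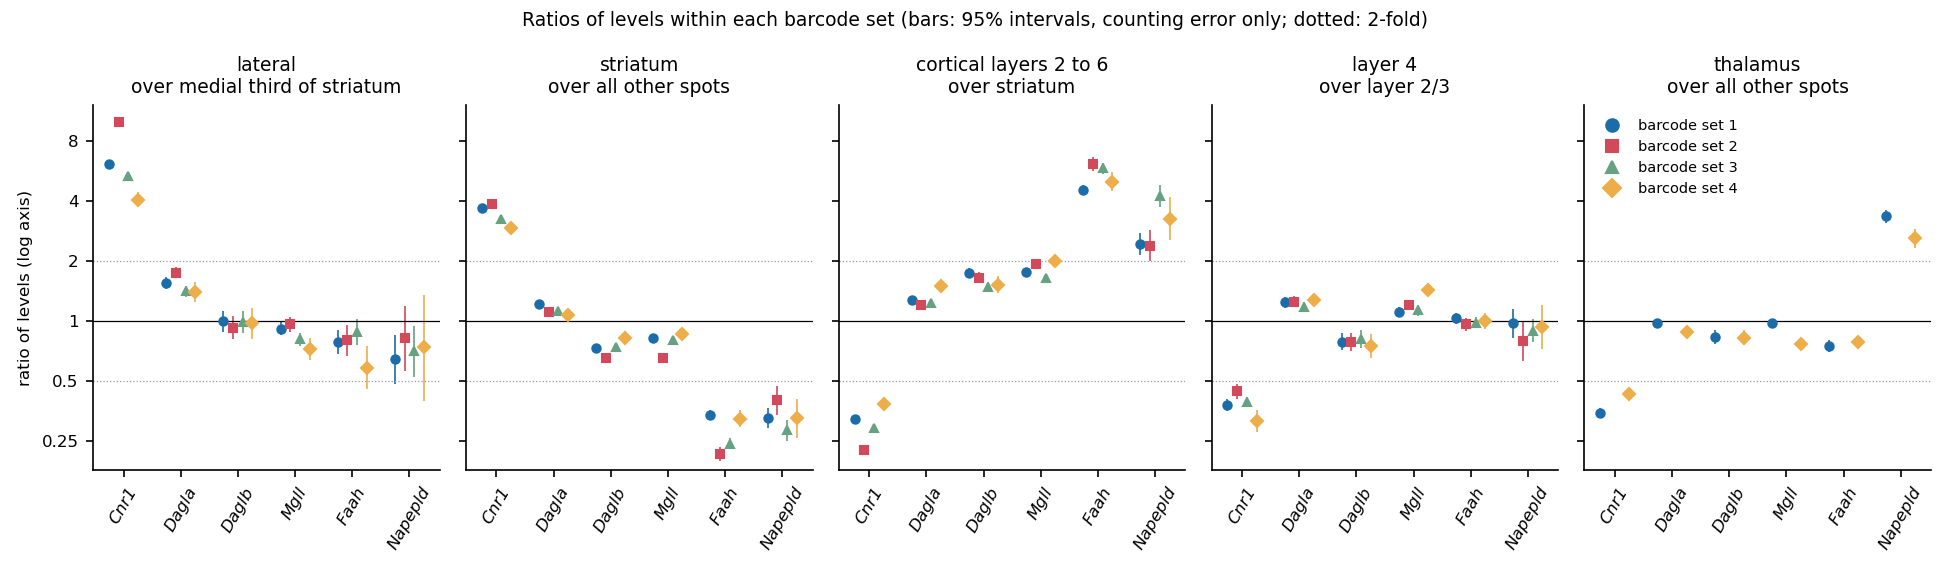
Ratio of levels between areas within each barcode set, on a log axis, with 95% exact conditional binomial intervals that cover counting error only. Dotted lines mark 2-fold. Cnr1 passes 2-fold in all 5 comparisons, Faah and Napepld in striatum against other spots and cortex against striatum, and Napepld in thalamus against other spots.

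Members differed in how they followed one another over areas. Pearson's r of log2(CPM + 1) was taken over 59 pairs with at least 30 spots. Each pair joined a set with an area or with a cluster that had no area name. The highest r among the members was 0.83, for Daglb and Faah. Dagla gave 0.64 with Daglb, 0.62 with Faah and 0.58 with Mgll. Cnr1 had 0.37 for Dagla as its highest and -0.34 for Napepld as its lowest. Napepld likewise had 0.39 for Faah as its highest and -0.34 for Cnr1 as its lowest, so both stood apart. These are descriptions, since areas of 1 set are not independent and neighbouring areas share cells.

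Among 10143 genes, those most like each member over the same 59 pairs were then listed, with Pearson's r in parentheses. Nearest to Cnr1 were Adra2c (0.78), Tbc1d20 (0.78) and Fam171a1 (0.77), and among those nearest to Dagla were Frrs1l (0.94) and Cacna1a (0.92). Daglb was nearest to Rtn4rl2 (0.84), 1110008P14Rik (0.84) and Lingo1 (0.84), all within 0.01 of one another. Mgll was nearest to Dio2 (0.86), Slc1a2 (0.83), the astrocytic glutamate transporter, and Gcnt4 (0.82). For Faah these were Rtn4r (0.96), Mfsd4a (0.93) and Olfm1 (0.93), and for Napepld Ccdc136 (0.83), Adcy8 (0.76) and Cdk14 (0.73). Cnr1 and Napepld had no gene above 0.83, whereas Faah had 1 above 0.95.

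A further 20 genes of the pathway were read in the same way. Across the striatum, 15 of these met the minimum of 10 CPM and 0 were at least 2-fold apart in all 4 sets in either direction, with a list median of -0.11 on the log2 scale against -0.10 over all genes compared. None of these reached the ratios of Cnr1. Plcb1, a phospholipase C that supplies diacylglycerol to Dagla, was the steepest upward, at 1.52 (1.47 to 1.58), 1.59 (1.52 to 1.66), 1.51 (1.46 to 1.56) and 1.28 (1.2 to 1.37) in sets 1 to 4. Dagla itself lay in much the same range. Gde1, an enzyme of a second route to anandamide, was at 1.10, 1.2, 1.14 and 1.15.

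Several other genes of the list were lower laterally. Cnrip1, which binds the tail of CB1, was at 0.645 (0.542 to 0.767), 0.563 (0.467 to 0.677), 0.733 (0.620 to 0.866) and 0.611 (0.455 to 0.817), and so went against the gene of its receptor. Sgip1, another CB1 partner, was at 0.943 to 1.08 with no common direction, and above 1 in all 4 sets under TMM and RLE scaling. Fabp7, a fatty acid carrier of astrocytes, was at 0.547 (0.488 to 0.613), 0.443 (0.382 to 0.513), 0.462 (0.406 to 0.524) and 0.538 (0.416 to 0.693), just short of 2-fold in sets 1 and 4. Fabp3 and Fabp5 were at 0.655 to 0.890 and 0.778 to 0.825. The astrocyte list of 7 markers was at 2518 to 3088 CPM in the medial group and 2415 to 3019.9 CPM in the lateral one, so the astrocyte list was nearly level where Fabp7 was lower.

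Between the striatum and all other spots, 16 of the 20 genes met the minimum, 1 was at least 2-fold higher in all 4 sets and 3 were lower, beside 3.28% and 5.76% of all genes compared. Their median was -0.15 on the log2 scale against -0.05 over all genes. The higher one was Grm5, a glutamate receptor that triggers endocannabinoid release, at 3.08, 2.08, 2.47 and 2.60. Plcb1 was at 2.16, 1.82, 1.95 and 2.06, short of 2-fold in sets 2 and 3. The lower ones were Fabp3 at 0.388 to 0.410, Cnrip1 at 0.331 to 0.364 and Plcb4 at 0.17 to 0.261. In the thalamus the order of the 2 phospholipases was the other way, with Plcb4 at 3.37 and 2.51 and Plcb1 at 0.309 and 0.278 times the other spots in sets 1 and 4.

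Further breakdown enzymes differed in their striatal level. Abhd6 was at 0.790, 0.685, 0.737 and 0.803 times the other spots in the striatum and Abhd12 at 1.04, 0.944, 1.03 and 1.01, with the Abhd12 value of set 2 above 1 under TMM and RLE scaling. Ptgs2, an oxidising enzyme, was at 1.71, 2.22, 1.31 and 3.44 CPM in the striatum and 5.99, 10.5, 6.86 and 9.77 CPM elsewhere, a ratio of 0.286, 0.212, 0.191 and 0.352 and too low for the comparison across genes. Between layer 4 and layer 2/3 it met the minimum and was the 1 of 17 listed genes that was at least 2-fold lower in all 4 sets, at 0.231, 0.276, 0.382 and 0.149, beside the 0.766% of all genes given above. Cnr1 and Ptgs2 were thus both lower in layer 4. The second cannabinoid receptor gene Cnr2 was at 0.275 to 0.948 CPM over the whole section, Gpr55 at 0.3996 to 0.804 CPM and Trpv1 at 0.120 to 0.793 CPM. At these counts no difference between areas was read for the last 3.

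**Figure D4:**
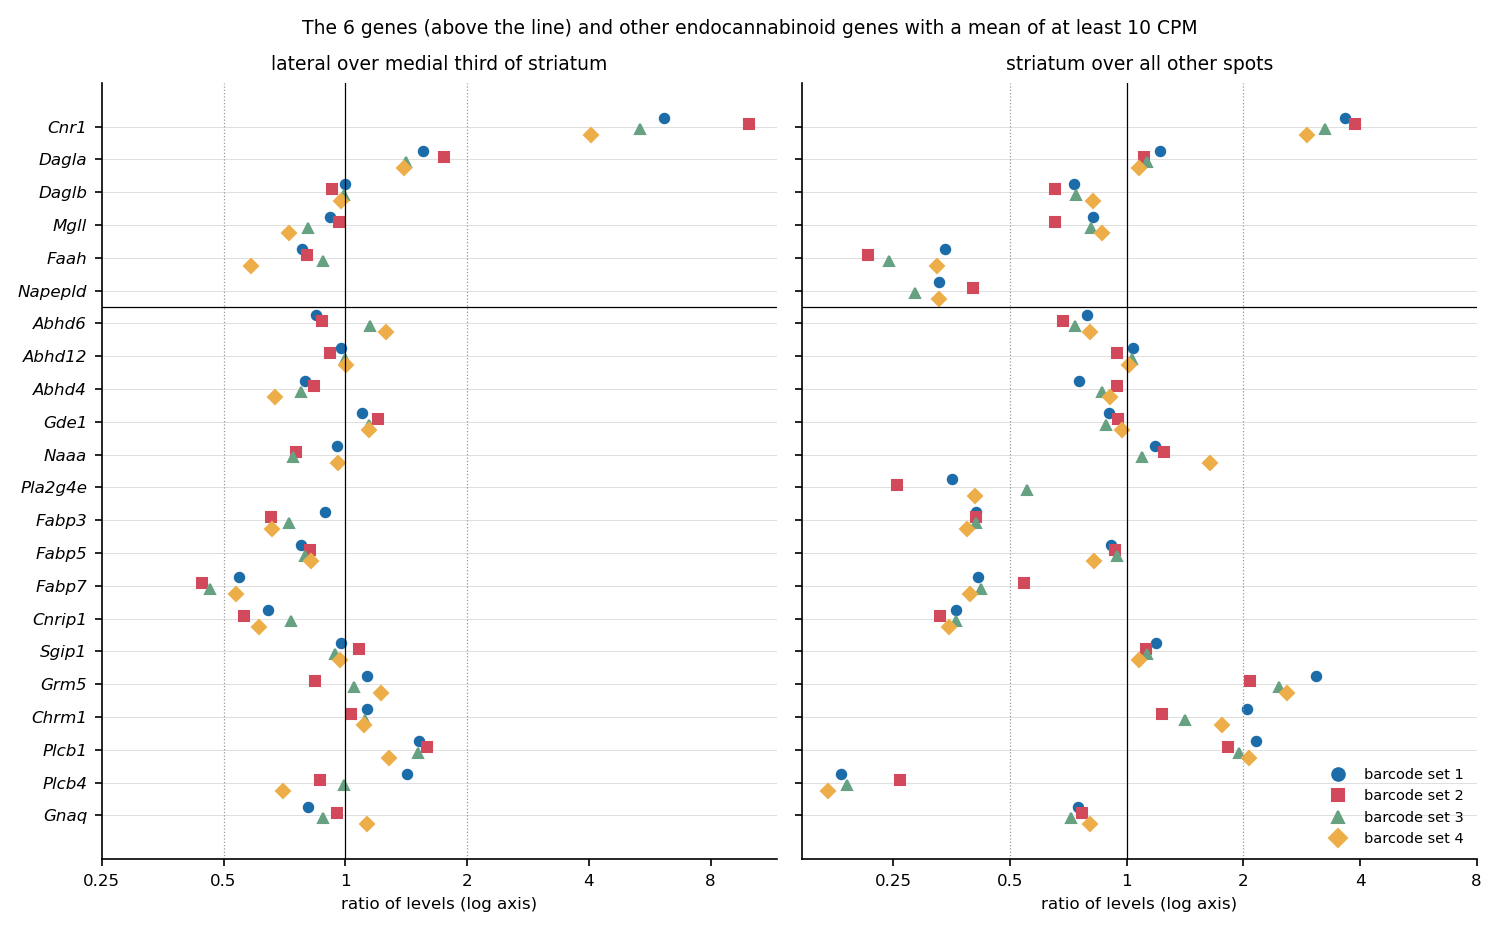
Ratios of levels on a log axis, lateral over medial group of the striatum on the left and striatum over all other spots on the right, for the 6 genes and the other genes of the pathway that reached a mean of 10 CPM. Each symbol is 1 barcode set and dotted lines mark 2-fold. On the left Cnr1 alone passes 2-fold in all 4 sets, and Plcb1 (1.28 to 1.59) lies near Dagla (1.40 to 1.75).

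The 4 sets were last set side by side for each member. Over the whole section Cnr1 was at 285, 304, 329.7 and 178 CPM in sets 1 to 4, 1.86 times as high in set 3 as in set 4. Napepld was at 23.3, 11.4, 22.4 and 18.1 CPM, 2.04 times as high in set 1 as in set 2. A range of 1.5-fold or more was common, with 40.4% of 10144 genes reaching it, and 2 of the 6 members did. Dagla was at 129, 177, 143 and 146 CPM, Daglb at 62.7, 62.5, 56.3 and 62.9 CPM, Mgll at 140.3, 145, 127 and 125 CPM and Faah at 88.0, 84.2, 96.6 and 89.0 CPM. Their ranges were 1.37, 1.12, 1.16 and 1.15 times. Daglb had a smaller range than 95.4% of the genes and Faah than 91.7%.

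Since the sets hold different areas, the same was read within 11 areas or parts of areas that all 4 sets held. The share of genes with a range of at least 1.5-fold was 38.8% in the striatum, 43.7% in its lateral and 41.7% in its medial group. It was 43.9% in layer 2/3, 44.0% in layer 4, 44.2% in the claustrum and layer 6b, 44.5% in the basal forebrain and 44.9% in the hypothalamus. White matter, meninges and choroid plexus had 51.2%, 61.0% and 68.2%. The sets can still lie in different clusters of 1 area. In the hypothalamus, 219 of 220 spots of set 2 were in cluster 24 and 270 of 300 of set 1 in cluster 7, and in layer 2/3, 216 of 231 spots of set 4 were in a cluster that no other set held. Striatal spots differed in this way too. Layer 4, basal forebrain, meninges and choroid plexus were each 1 cluster in all sets. Cnr1 reached the limit in 11 of 11 areas, with set 4 lowest in 7 and set 3 highest in 7. In the 4 areas of 1 cluster its range was 1.93, 2.11, 1.53 and 3.19 times. In the lateral group, set 4 was at 646 CPM and the other sets at 1219 CPM or above. In the medial group, set 2 was the lowest, at 128 CPM. Set 4 was also the set with the fewest counts per spot.

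Napepld reached 1.5-fold in 8 of the 11 areas, all 8 outside the striatum, where it was under the minimum of 10 CPM, and set 2 was lowest in 9 of 11. Layer 4 had the widest range, at 28.8, 15.5, 40.2 and 20.9 CPM in sets 1 to 4. Daglb reached it in 0 of 11, although set 3 was lowest in each. Dagla was lowest in set 1 in 9 of 11 areas and reached the limit in 2. Mgll reached it in 1, and Faah, lowest in set 2 in 9 areas, in 3. As 38.8% or more of genes reached the limit in each area, these counts describe the sets and do not set the members apart.

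**Figure D5:**
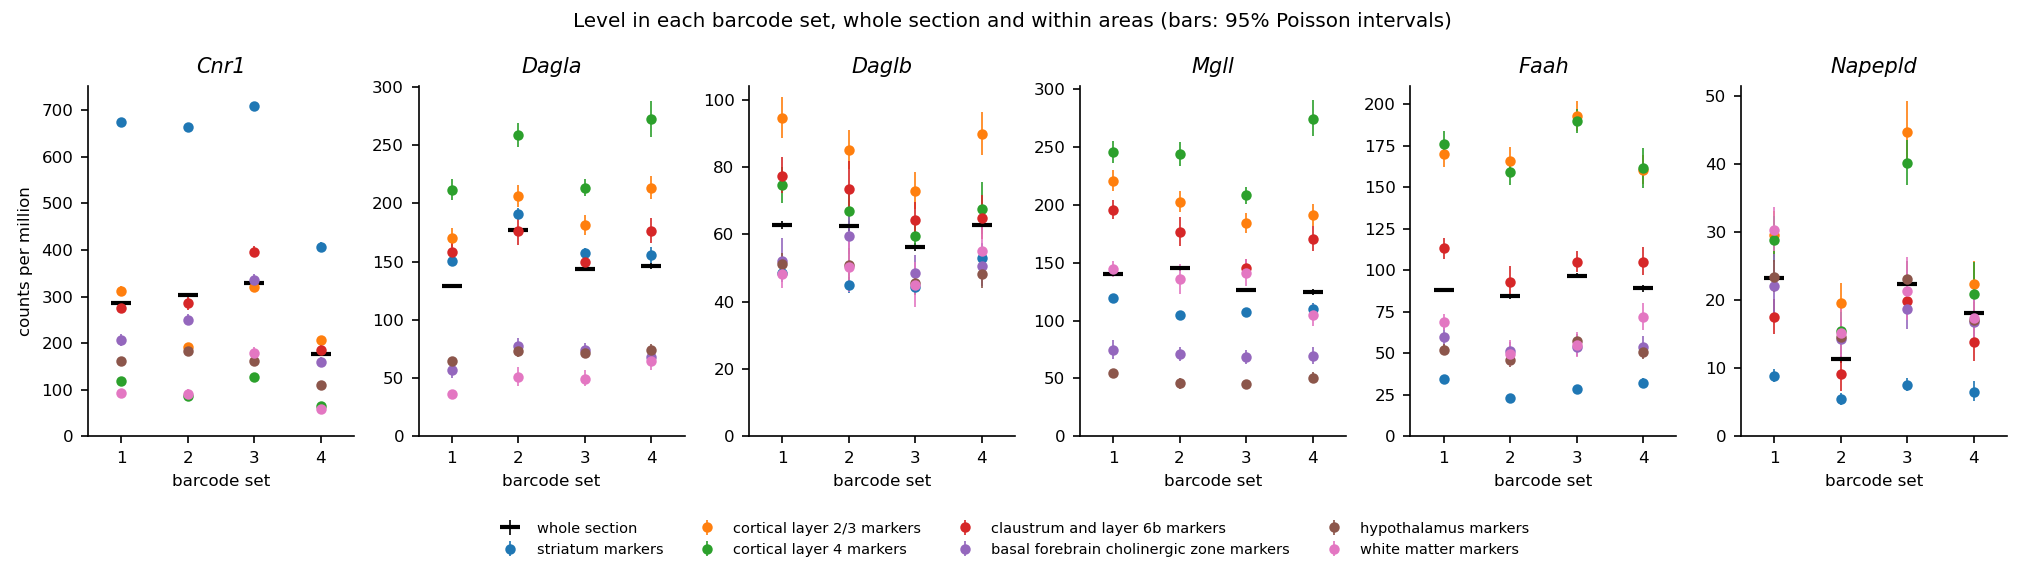
Level in CPM, on linear axes from 0, of the 6 genes in each barcode set, for the whole section (black bars) and for 7 areas held by all sets (points), with 95% Poisson intervals. Cnr1 is lowest in set 4 (177.5 CPM over the section) and Napepld in set 2 (11.4 CPM), whereas Daglb is nearly level (56.3 to 62.9 CPM).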

How the data were processed

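The authors deposited a single table of counts per gene and spot, made with Space Ranger and Seurat per the submitters' processing notes. The genome build, probe set and spot filters are not given in the sources used here. All of them are whole and none is negative, as was checked.

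The endings of the spot barcodes match no sample label, so the planned genotype tests were not run. The 6 genes, the lists and the rules were chosen with earlier results of these data known. Named genes are the 6 members, the listed pathway genes and, for each member, the 3 genes most correlated with it over areas and sets, of which 1 is not reported here. Robo3, Gpr139, Cpne9, Nefm and Cyp2s1 fall outside this rule, as do marker genes, Celsr3 and the leading genes given for clusters.

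Spots under 500 counts were left out (1 spot). Without the 6 genes and the other pathway genes, counts scaled to 10000 per spot and log-transformed were centred within each set and clustered on 2000 variable genes, with 30 principal components, 15 nearest neighbours and Leiden resolution 0.8. A cluster took the name of the marker list with the highest mean log2 fold, inside over outside with 10 CPM added, if that reached 1. At least 3 genes of the list also had to be 2-fold up and at least 1 among the 10 leading genes. No other list could have more genes among these 10. Areas needed 30 spots in a set. CPM were summed over spots, with exact Poisson intervals for levels and exact conditional binomial intervals for ratios, at 95%. A gene was counted as 2-fold apart if it was so in all sets and its mean reached 10 CPM.

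The alternatives were resolutions of 0.4 and 1.2, no centring, a minimum of 2000 counts, an Otsu threshold on striatal markers, 2 groups in place of 3, medial genes alone, a principal component, TMM scaling, RLE scaling, thinned counts and no filter on genes. Steps were tested on simulated data. Python 3.11.15, scanpy 1.11.5, leidenalg 0.10.2, scipy 1.17.1, scikit-image 0.26.0 and matplotlib 3.10.9 were used, and edgeR 4.0.16 in R 4.3.3 gave the scaling factors.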

Additional observations from a re-analysis of the deposited data

How the results depend on the processing

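No paired analysis was possible because no label ties a barcode set to a replicate number or genotype. For the same reason the planned genotype test with edgeR was not run. Fits with DESeq2, with a replicate block or without each replicate in turn were not run either. Leaving out the clusters led by medial or myelin genes, RLE scaling of the area ratios, and layers 2/3 and 4 in place of all cortical layers, were chosen after seeing the data.

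The lateral over medial log2 ratio of Cnr1, with a median over sets of 2.52, was 1.78 with 2 groups in place of 3 and 1.62 without the medial and myelin-rich clusters. With 2 groups, less extreme spots are compared by construction, and the cause of either lower value was not tested. Over all alternatives the median ran from 1.62 to 2.69 for Cnr1, 0.36 to 0.74 for Dagla, -0.10 to 0.15 for Daglb, -0.26 to -0.04 for Mgll, -0.55 to -0.09 for Faah and -0.64 to -0.28 for Napepld. Among values beyond counting error, single sets changed direction in 5 cases. Mgll in set 1 went to 0.0089 under TMM, 0.034 under RLE and 0.0028 without those clusters, and Faah in set 2 to 0.17 at resolution 0.4 and 0.12 without those clusters. The cause was not tested. Striatum over other spots kept the direction of each median, from 1.74 to 1.95 for Cnr1, 0.13 to 0.29 for Dagla and -1.89 to -1.68 for Faah. Cortex over striatum kept its direction in each of the 6 members with layers 2/3 and 4 alone.

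TMM and RLE scaling moved the range over sets of the whole section to 2.17 and 2.18 for Cnr1, 1.28 and 1.28 for Dagla, 1.18 and 1.16 for Daglb, 1.34 and 1.31 for Mgll, 1.27 and 1.28 for Faah, and 2.30 and 2.25 for Napepld. Thinning to the smallest set moved none beyond counting error.

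With no filter on low genes, 37 genes (0.191% of 19335) were at least 2-fold higher and 511 (2.64%) lower laterally. In the striatum 443 (2.28% of 19399) were higher and 1003 (5.17%) lower. In the cortex 776 (4.01% of 19375) were higher and 816 (4.21%) lower than in the striatum. Layer 4 had 115 (0.595% of 19319) higher and 158 (0.818%) lower, and the thalamus 509 (2.63% of 19386) higher and 1797 (9.27%) lower. A gene absent from a side of the comparison in a set counted as 2-fold apart there. Without the filter, a range over sets of 1.5-fold was reached by 11854 genes (61.1% of 19399). Depth limits Napepld most, with 86 counts in the striatum of set 4.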
